A study of Mus musculus with 4 samples.

Results

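Interleukins and their receptors were followed in RNA sequencing libraries of whole mouse islets. The members are all genes of the deposited table whose symbol begins with Il and a digit, 83 of 24421 rows. They cover ligands, receptor chains, secreted or decoy antagonists, the enzyme gene Il4i1 and the antisense transcript Il1bos. At least 1 read was found in some library for 57 members, and 26 members had no read in any. The filter of at least 1 CPM (counts per 1000000 reads) in 2 or more of the 4 libraries was passed by 25 members, which were tested. The other 32 with reads are described by their reads.

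All islets came from wild-type C57BL/6 mice and were cultured in RPMI with 11 mM glucose. The cytoEV islets (2 libraries) received cytoEV daily for 48 h. The control islets (2 libraries) are labelled untreated, but their columns bear a name that reads as control EV, so whether they received other vesicles is not settled here. Going by the series title, cytoEV stands among small extracellular vesicles of beta cells in a pro-inflammatory state. The labels do not tie replicates to their own mice or cultures. P-values here therefore reflect the spread of these libraries alone, which may be technical.

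Depth was 137964050 and 136134548 reads in the cytoEV libraries, and 129726756 and 156183968 reads in the control libraries, as recovered from the CPM values. At that depth, 3 reads equal 0.0217 and 0.0220 CPM in the cytoEV libraries, and 0.0231 and 0.0192 CPM in the control libraries, a limit that covers counting error only. Of the 10 beta cell markers, all were detected, and they summed to 235545 and 245846 CPM in cytoEV islets and to 237717 and 209208 CPM in control islets. The 17 macrophage markers summed to 383 and 396 CPM in cytoEV islets and to 388 and 382 CPM in control islets. The defining T cell genes Cd3e, Cd3d and Cd3g, the B cell genes Cd79b and Ms4a1, the NK cell gene Ncr1 and all 6 mast cell markers had 0 reads in every library. Other genes of the NK cell and ILC (innate lymphoid cell) list had reads. Its 10 markers summed to 73.1 and 69.5 CPM in cytoEV islets and to 77.0 and 75.7 CPM in control islets. The 7 B cell markers summed to 8.39 and 8.71 CPM in cytoEV islets and to 6.04 and 5.50 CPM in control islets, and 1 of the 2 tested, Cd79a, rose in limma (adjusted p = 0.0164). Cd79a was named after its values were seen, and its part in the members was not tested. The 9 stellate and fibroblast markers summed to 267 and 293 CPM in cytoEV islets and to 393 and 333 CPM in control islets. Of these, 4 fell in limma, against 3.51% of all tested genes. Limma also called lower 3 of 8 tested endothelial, 3 of 6 Schwann, 3 of 4 acinar, 2 of 5 ductal and 1 of 4 delta and PP markers. It called 2 of 10 beta cell markers higher, against 3.16% of all genes, and 1 of 17 macrophage markers each way. The part of these cell types in the members was not tested. In whole islets, fewer cells of a type and less RNA per cell cannot be told apart.

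Interleukins are secreted signals that act through receptors built from several chains, often with a chain private to the ligand and a chain shared by a family. IL-1 family receptors signal through MyD88 and IRAK kinases to NF-kB, whereas most other interleukin receptors work through JAK kinases and STAT transcription factors. In islets, IL-1 is known for acting on beta cells, which carry its receptor, and resident macrophages are a known source of IL-1 beta. Several pathways carry their own brakes, such as IL-18 binding protein, which captures IL-18, and the IL-1 receptor antagonist.

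The antagonist gene Il18bp rose in cytoEV islets, and it was the single member of 25 that passed the test. Over all 12780 genes tested, 3.16% were higher, 3.51% lower and 6.67% either at the same threshold, so 1 higher and 0 lower among 25 members is close to the share of all genes. Il18bp encodes a secreted protein that binds IL-18 and keeps it from its receptor, and in human cells it is known as a target of interferon gamma. It had 39.6 and 41.3 CPM in cytoEV islets, against 12.9 and 13.6 CPM in control islets. Both cytoEV libraries lay well above both control libraries, and each pair was close together. The ratio of the mean CPM was 3.06, and on the log2(CPM + 1) scale cytoEV islets were 1.54 ± 0.10 (SE) higher, with a limma adjusted p of 4.5e-05. Il18bp is a protein-coding gene of the minus strand of chromosome 7, between bases 102014885 and 102018690 (GRCm38), and 80 bases of its exons lie opposite an exon of Numa1. Numa1, which encodes a mitotic spindle protein, had 201 and 216 CPM in cytoEV islets against 234 and 195 CPM in control islets (limma adjusted p = 0.878). Of the 50-base stretches of Il18bp transcripts, 1.0% also occur in other genes.

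Its ligand gene Il18 had 3.001 and 3.32 CPM in cytoEV islets, against 2.00 and 2.36 CPM in control islets. The groups did not overlap, but the log2 change of 0.39 ± 0.13 (SE) did not pass in limma (adjusted p = 0.115). With 1 library left out, the log2 change of Il18 ran from 0.31 to 0.47. The ratio of Il18bp to Il18, taken within each library, was 13.2 and 12.5 in cytoEV islets, against 6.44 and 5.77 in control islets. An exact permutation test of such a single value cannot go below p = 0.333 with 2 against 2, so no test of the ratio was made. The IL-18 receptor chains were below the filter. Il18r1 had 57 and 42 reads in cytoEV islets against 37 and 66 reads in control islets. Il18rap, the accessory chain, had 40 and 25 reads in cytoEV islets against 73 and 52 reads in control islets. Il18r1 therefore overlapped between the groups, whereas both cytoEV libraries were lower for Il18rap, and the edgeR test added for such low genes called neither (adjusted p = 0.983 and 0.378).

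**Figure D1:**
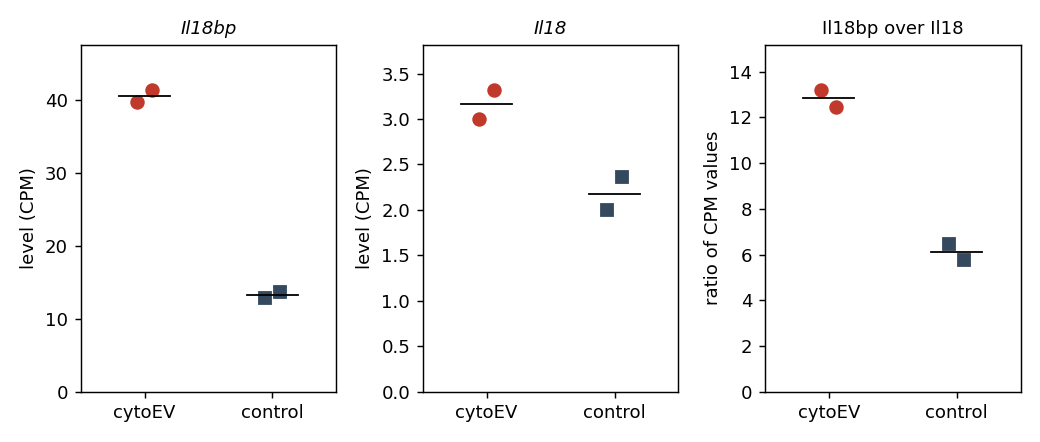
Levels of Il18bp and Il18 (CPM) and their ratio within each library in cytoEV islets (circles) and control islets (squares), with 2 libraries each and lines at the means. The Il18bp points are at 39.6 and 41.3 CPM in cytoEV islets and at 12.9 and 13.6 CPM in control islets, and the ratio is 13.2 and 12.5 in cytoEV islets and 6.44 and 5.77 in control islets.

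The 250 bases before the RefSeq start sites of Il18bp (chr7:102018233-102018482, minus strand) and Il18 (chr9:50554450-50554699, plus strand; both GRCm38.p6) are shown because they belong to the member that rose and to the ligand it binds. They are written 5′ to 3′, and no capitals appear because neither motif searched occurs in them.
Il18bp: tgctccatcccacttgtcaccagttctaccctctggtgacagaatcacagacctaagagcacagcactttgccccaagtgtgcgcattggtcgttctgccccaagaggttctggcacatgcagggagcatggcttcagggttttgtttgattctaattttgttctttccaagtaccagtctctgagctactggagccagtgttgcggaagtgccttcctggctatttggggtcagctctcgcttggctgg
Il18: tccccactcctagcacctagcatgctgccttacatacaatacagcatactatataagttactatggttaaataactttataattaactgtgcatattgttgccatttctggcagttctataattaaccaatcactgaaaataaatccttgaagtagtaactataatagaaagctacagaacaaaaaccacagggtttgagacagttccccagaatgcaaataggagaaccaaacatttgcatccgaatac
The motifs were the gamma-activated site TTCNNNGAA, which is its own reverse complement, and the interferon-stimulated response element, which is GAAA, then 2 bases of any kind, then GAAA, on either strand. They were searched from 250 bases before to 50 bases after each start site. RefSeq promoters were found for 66 of the 83 members (81 promoters). The gamma-activated site occurred in 11 of these 81 promoters, and in 8.3% of all 32851 promoters. The response element occurred in 3 of the 81, and in 3.44% of all promoters. A match or its absence in this window says only whether these letters are there. GENCODE also annotates an Il18bp transcript that starts upstream of this window.

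The IL-1 receptor gene Il1r1 was the most abundant member per kilobase of exon. It had 695 and 652 CPM in cytoEV islets, against 680.4 and 788 CPM in control islets, and the groups overlapped. Per kilobase of exon its level was 106 ± 4.76 CPM in cytoEV islets and 115 ± 11.96 CPM in control islets (SD, n = 2 each). Its log2 change of −0.12 ± 0.09 (SE) did not pass in limma (adjusted p = 0.484), with a 95% interval from −0.34 to 0.09. Leaving out 1 library gave log2 changes from −0.23 to −0.016. Il1r1 lies in a run of 6 receptor genes of the IL-1 family on chromosome 1, all on the plus strand, from 40074079 to 40551705 (GRCm38), a span of 478 kb. Its neighbours in that run were far lower, with Il1r2 at 0.945 ± 0.0955 CPM per kilobase in cytoEV islets and 0.729 ± 0.208 CPM per kilobase in control islets (SD, n = 2 each). Il1r2, the decoy receptor that binds IL-1 without signalling, had 1.67 and 1.93 CPM in cytoEV islets against 1.11 and 1.67 CPM in control islets (limma adjusted p = 0.391). Il1rl2, the IL-36 receptor gene, had 94 and 38 reads in cytoEV islets against 87 and 71 reads in control islets. Il1rl1, the IL-33 receptor gene, had 0 reads in every library. It begins 62007 bases after Il1rl2 and ends 136 bases before Il18r1. The run thus held the most abundant member beside members at or near 0 in both groups.

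Il1rap, the accessory chain that IL-1 and IL-33 receptors share, had 6.78 and 6.18 CPM in cytoEV islets against 5.56 and 5.93 CPM in control islets (limma adjusted p = 0.496). Per kilobase of exon, it stood at 0.571 ± 0.0378 CPM in cytoEV islets and 0.506 ± 0.0231 CPM in control islets (SD, n = 2 each), far below Il1r1 in both. Il1b, which encodes IL-1 beta, had 5.22 and 5.53 CPM in cytoEV islets against 6.71 and 6.70 CPM in control islets. Both cytoEV libraries were lower, but the log2 change of −0.27 ± 0.11 (SE) did not pass (limma adjusted p = 0.195). Il1rn, the receptor antagonist gene, had 2.45 and 1.94 CPM in cytoEV islets against 1.47 and 2.22 CPM in control islets, and overlapped (limma adjusted p = 0.569). Il1a had 78 and 72 reads in cytoEV islets against 42 and 65 reads in control islets, below the filter. Il33, an alarmin of stromal and endothelial cells, had 11 and 26 reads in cytoEV islets against 29 and 38 reads in control islets. The 8 endothelial markers, measured in the same libraries, summed to 35.4 and 37.4 CPM in cytoEV islets against 49.7 and 49.6 CPM in control islets. Their part in the value of Il33 was not tested. The IL-36 and IL-38 genes, listed as Il1f5, Il1f6, Il1f8, Il1f9 and Il1f10, had 0 reads throughout.

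**Figure D2:**
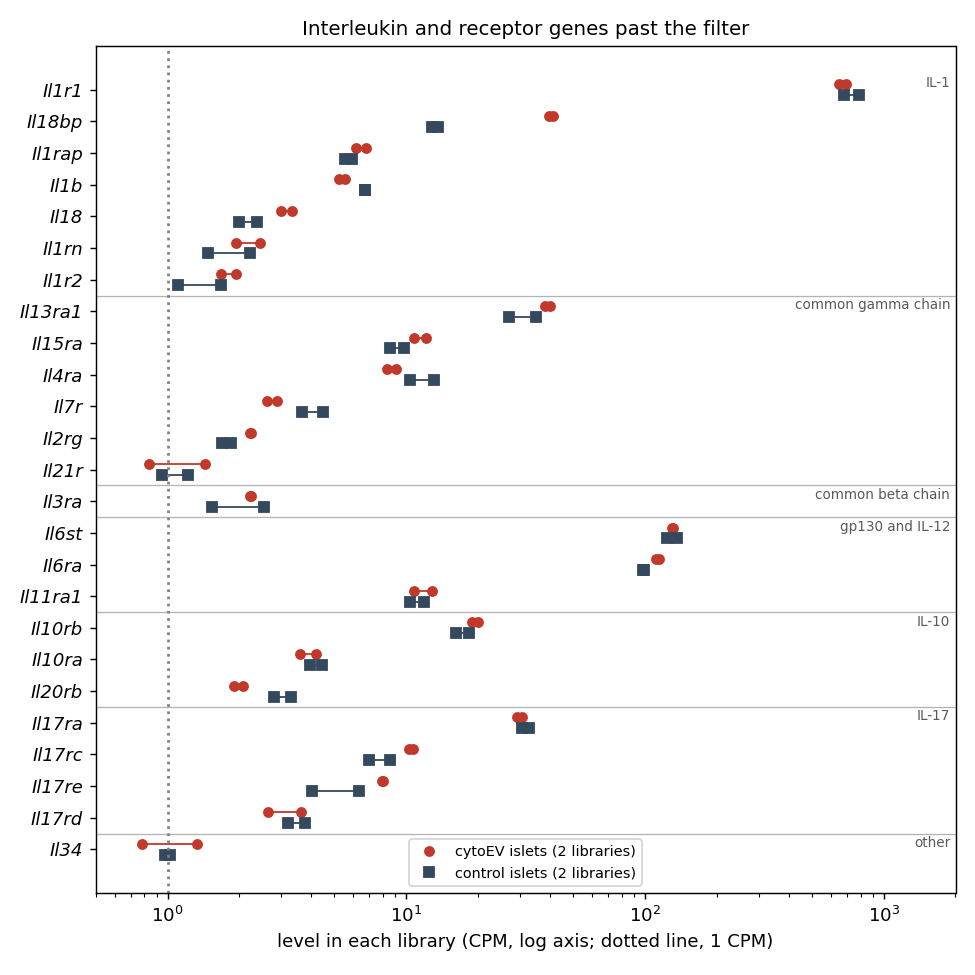
Levels (CPM, log axis) of the 25 members past the filter in each library, by receptor family, with cytoEV islets as circles above control islets as squares and a line joining the 2 libraries of a group. Il1r1 is the highest in all libraries, and Il18bp, at 39.6 and 41.3 CPM in cytoEV islets and 12.9 and 13.6 CPM in control islets, has the widest gap between its groups.

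Among receptors that use the common gamma chain or its partners, 6 were tested and 0 passed in limma, 4 of them at an unadjusted p under 0.05. EdgeR and DESeq2 also called 0 of these 6. Over all tested genes, limma called 6.67%, and 23.3% were at an unadjusted p under 0.05. EdgeR called 5.67% of all genes and DESeq2 12.4%, so 0 of 6 is close to the shares called after adjustment. The 4 of 6 at an unadjusted p under 0.05 are a larger share than 23.3%, a difference that was not tested. Il13ra1, a chain that joins Il4ra in the type II receptor for IL-4 and IL-13, had 40.0 and 38.0 CPM in cytoEV islets against 26.9 and 34.9 CPM in control islets. Il4ra had 8.34 and 9.05 CPM in cytoEV islets against 13.1 and 10.3 CPM in control islets. The chains of this receptor therefore lay on opposite sides: both cytoEV libraries were above the controls for Il13ra1 and below them for Il4ra. Their log2 changes of 0.34 ± 0.13 and −0.38 ± 0.13 (SE) did not pass in limma (adjusted p = 0.161 and 0.132). When 1 library was left out, they ran from 0.16 to 0.52 for Il13ra1 and from −0.54 to −0.23 for Il4ra. The ratio of Il13ra1 to Il4ra in each library was 4.80 and 4.20 in cytoEV islets against 2.05 and 3.37 in control islets. Of the 50-base stretches of Il4ra, 8.4% occur in the model Gm44876 on the opposite strand.

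Il15ra, which presents IL-15 to neighbouring cells, had 12.1 and 10.7 CPM in cytoEV islets against 8.54 and 9.82 CPM in control islets (log2 change 0.29 ± 0.12 SE, limma adjusted p = 0.203). That change ran from 0.20 to 0.38 for Il15ra when 1 library was left out. Its ligand gene Il15 had 3 and 8 reads in cytoEV islets against 0 and 5 reads in control islets, near the limit of 3 reads. Il7r, the IL-7 receptor chain of lymphocytes, had 2.88 and 2.60 CPM in cytoEV islets against 3.67 and 4.48 CPM in control islets (log2 change −0.44 ± 0.13 SE, limma adjusted p = 0.0930). With 1 library left out, the change of Il7r ran from −0.55 to −0.32. The 9 T cell markers in the table summed to 1.07 and 1.31 CPM in cytoEV islets against 1.36 and 1.61 CPM in control islets, and their part in the value of Il7r was not tested. The ligand gene Il7 went the other way, with 41 and 33 reads in cytoEV islets against 8 and 15 reads in control islets. An added edgeR test on genes with at least 10 reads in 2 libraries did not call Il7 (log2 change 1.75, adjusted p = 0.183). Il2rg, the common gamma chain itself, had 2.22 and 2.23 CPM in cytoEV islets against 1.69 and 1.84 CPM in control islets (limma adjusted p = 0.317), and 27.5% of its 50-base stretches occur in the overlapping model Gm20489. Il21r overlapped between groups, with 1.44 and 0.837 CPM in cytoEV islets against 1.22 and 0.948 CPM in control islets. Il2ra, the high-affinity IL-2 receptor chain, had 3 and 6 reads in cytoEV islets against 11 and 17 reads in control islets, and the signalling chain Il2rb had 0 and 3 reads in cytoEV islets against 11 and 8 reads in control islets. The ligand genes Il2, Il4, Il9 and Il13 had 0 reads.

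Per kilobase of exon, the gp130 family held the next most abundant receptor chains. Il6st, which encodes the shared signalling chain gp130, had 130.5 and 129 CPM in cytoEV islets against 124 and 137 CPM in control islets (limma adjusted p = 0.987), and its 95% interval of the log2 change ran from −0.20 to 0.20. Il6ra, the IL-6 binding chain, had 114 and 112 CPM in cytoEV islets against 99.4 and 98.5 CPM in control islets. The difference was small and the groups did not overlap, but the log2 change of 0.19 ± 0.08 (SE) did not pass in limma (adjusted p = 0.213). The change of Il6ra ran from 0.17 to 0.20 when 1 library was left out. Il11ra1, the IL-11 binding chain, had 10.8 and 12.8 CPM in cytoEV islets against 11.9 and 10.4 CPM in control islets (limma adjusted p = 0.785). Its value is uncertain, since 46.3% of its 50-base stretches occur in other genes, among them its near copy Il11ra2, which had 0 reads. Per kilobase of exon, Il6ra stood at 13.1 ± 0.206 CPM in cytoEV islets and 11.5 ± 0.0707 CPM in control islets, and Il6st at 11.7 ± 0.0807 CPM in cytoEV islets and 11.7 ± 0.830 CPM in control islets (SD, n = 2 each). The ligands were low. Il6 had 81 and 35 reads in cytoEV islets against 22 and 54 reads in control islets, and Il11 had 70 and 71 reads in cytoEV islets against 82 and 146 reads in control islets.

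In the IL-12 branch, Il12b, the subunit shared by IL-12 and IL-23, had 15 and 19 reads in cytoEV islets and 0 reads in both control libraries. Its mean CPM in cytoEV islets was 5.87-fold a floor of 3 reads per library in control islets. That value leaves out the counting error of the cytoEV reads and the spread between libraries, so it does not bound a group difference. The added edgeR test did not call Il12b (adjusted p = 0.0898). Il12rb2, an IL-12 receptor chain, had 9 and 9 reads in cytoEV islets and 0 reads in both control libraries. Its mean CPM in cytoEV islets was 3.1-fold the same floor, with the same limits. Of its 50-base stretches, 38% occur in other genes, mostly in Serbp1 on the opposite strand, so its reads are uncertain. The partner subunit Il12a and the receptor gene Il23r had 0 reads. Il23a had 35 and 22 reads in cytoEV islets against 34 and 34 reads in control islets, and Il12rb1, the chain shared by the IL-12 and IL-23 receptors, had 17 and 11 reads in cytoEV islets against 32 and 6 reads in control islets.

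Of the IL-17 receptors, 4 chains were tested and 0 passed in limma, 2 of them at an unadjusted p under 0.05. EdgeR called 0 of these 4 and DESeq2 called 1. Of all tested genes, 6.67% passed in limma and 23.3% were at an unadjusted p under 0.05, and edgeR called 5.67% and DESeq2 12.4%. With 4 chains, these counts cannot be told from those shares. Il17re, which pairs with Il17ra to bind IL-17C, had 8.002 and 7.90 CPM in cytoEV islets against 6.35 and 4.05 CPM in control islets. Both cytoEV libraries were higher, and the control libraries were far apart. The log2 change of 0.56 ± 0.17 (SE) did not pass in limma (adjusted p = 0.0970) or in edgeR (0.176), but did in DESeq2 (0.0455). Leaving out 1 library gave log2 changes from 0.28 to 0.83. Il17rc, the partner of Il17ra for IL-17A and IL-17F, had 10.3 and 10.7 CPM in cytoEV islets against 8.56 and 7.005 CPM in control islets (log2 change 0.39 ± 0.13 SE, limma adjusted p = 0.105). The same runs gave 0.26 to 0.52 for Il17rc. Il17re and Il17rc are neighbours on chromosome 6, both on the plus strand, with 668 bases between them (from 113458484 to 113483140, GRCm38). The shared chain Il17ra, on the same chromosome from 120463247 to 120487559, had 29.0 and 30.4 CPM in cytoEV islets against 32.7 and 30.7 CPM in control islets (limma adjusted p = 0.628). Il17rd, a chain that also affects growth factor signalling, had 3.62 and 2.64 CPM in cytoEV islets against 3.76 and 3.21 CPM in control islets (limma adjusted p = 0.670). Of the ligands, Il17d had 126 and 118 reads in cytoEV islets against 113 and 153 reads in control islets. Il17c, the ligand of the Il17re chain, had 6 and 6 reads in cytoEV islets and 0 reads in both control libraries. Its mean CPM in cytoEV islets was 2.07-fold the floor of 3 reads in control islets, a value that leaves out library spread. Il17rb, a receptor chain for IL-25, had 0 reads in both cytoEV libraries against 6 and 17 reads in control islets. Its mean CPM in control islets was 3.54-fold the floor of 3 reads in cytoEV islets, likewise without library spread. Its reads equal those of Il22 in every library, and whether counting made them so was not tested, so both values are uncertain.

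Among the IL-10 family receptors, Il10rb, a chain shared by the receptors of IL-10, IL-22 and the lambda interferons, had 19.98 and 18.9 CPM in cytoEV islets against 16.2 and 18.4 CPM in control islets (limma adjusted p = 0.421). Of its 50-base stretches, 13.9% occur in other genes, mainly the overlapping model Gm21970. Il10ra, the IL-10 binding chain of leukocytes, had 3.57 and 4.19 CPM in cytoEV islets against 3.94 and 4.42 CPM in control islets (limma adjusted p = 0.738). Il20rb, a chain of the receptors for IL-19, IL-20 and IL-24, had 2.08 and 1.90 CPM in cytoEV islets against 3.29 and 2.79 CPM in control islets (log2 change −0.43 ± 0.13 SE, limma adjusted p = 0.0876). Both cytoEV libraries were lower, and with 1 library left out the log2 change ran from −0.52 to −0.34. Its partner Il20ra had 9 and 9 reads in cytoEV islets and 0 reads in both control libraries. The cytoEV mean CPM of Il20ra was 3.1-fold the floor of 3 reads in control islets, a value that leaves out library spread. The reads of Il20ra equal those of Il12rb2 in every library, which likewise leaves both values uncertain. Il22 had 0 reads in both cytoEV libraries against 6 and 17 reads in control islets. Its mean CPM in control islets was 3.54-fold the floor of 3 reads in cytoEV islets, also without library spread. Of the 50-base stretches of Il22, 41% are shared, mainly with Iltifb. Il22ra1, the IL-22 binding chain, had 3 and 11 reads in cytoEV islets against 14 and 11 reads in control islets. Il10 had 3 reads in 1 control library and 0 reads in the others.

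Of the remaining tested members, Il3ra, the IL-3 binding chain, had 2.21 and 2.25 CPM in cytoEV islets against 2.54 and 1.53 CPM in control islets (limma adjusted p = 0.752). Il34, a ligand of the macrophage receptor CSF1R, had 0.783 and 1.33 CPM in cytoEV islets against 1.03 and 0.973 CPM in control islets (limma adjusted p = 0.938). Il16, a chemoattractant that binds CD4, had 120 and 121 reads in cytoEV islets against 92 and 123 reads in control islets, and 15.5% of its 50-base stretches are shared, mostly with Stard5. Il4i1, which encodes a secreted amino acid oxidase of immune cells, had 20 and 13 reads in cytoEV islets against 0 and 1 read in control islets, a ratio of 34.4 with an exact 95% counting interval from 5.76 to 1400.0. The added edgeR test did not call it (adjusted p = 0.106). Other genes hold 77.1% of its 50-base stretches, mostly Tbc1d17 on the opposite strand. Tbc1d17 had 36.8 and 39.5 CPM in cytoEV islets against 41.3 and 34.3 CPM in control islets (limma adjusted p = 0.954).

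**Figure D3:**
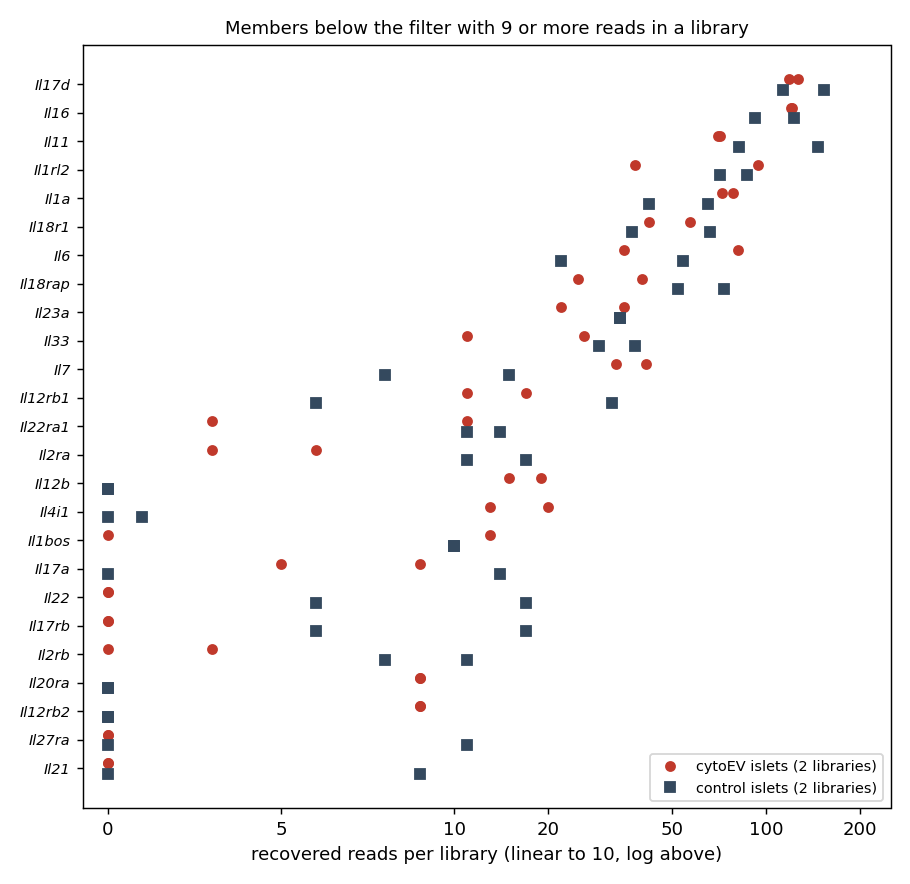
Recovered reads per library (linear to 10, log above) of the members below the filter with 9 or more reads in a library, with cytoEV islets as circles above control islets as squares; equal values cover each other. Il12b, with 15 and 19 reads in cytoEV islets and 0 reads in both control libraries, and Il7, with 41 and 33 reads in cytoEV islets and 8 and 15 reads in control islets, are among those without overlap.

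Among the 32 members with reads that missed the filter, the cytoEV libraries were above both control libraries in CPM in 9, below both in 7 and overlapped them in 16. Over all 4940 genes with reads that missed the filter, the groups did not overlap in 34.1%, with 15% above and 19.1% below. Il16 is among the 9, since its control library with 123 reads was the deepest. The ones not yet given, Il1bos, Il17a, Il27ra, Il27, Il13ra2, Il21, Il22ra2 and Il19, had at most 14 reads in any library. Beside those named above, the members with 0 reads in every library were Il9r, Il5ra, Il31ra, Il17f, Il17b, Il20, Il25, Il24, Il1rapl1, Il1rapl2, Il31, Il3 and Il5. A count of 0 leaves room for up to 3 reads per library.

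Across the 25 tested members, the cytoEV libraries lay above both control libraries in 11, below both in 5 and overlapped them in 9. Over all 12780 tested genes the groups did not overlap in 53.9%, with 27.8% above and 26.1% below, so a gap between the groups is common in these libraries. The median log2 change of the tested members was 0.11, against 0.0055 over all tested genes. At an unadjusted p under 0.05, 11 of the 25 passed in limma, against 1 after adjustment, and 23.3% of all genes passed at that unadjusted threshold (12% higher and 11.3% lower). EdgeR on the recovered reads called 1 higher and 0 lower, where it called 2.52% of all genes higher, 3.15% lower and 5.67% either, and DESeq2 called 2 higher and 0 lower, where it called 5.83% of all genes higher, 6.61% lower and 12.4% either. In the added edgeR test with at least 10 reads in 2 libraries, which took in 42 members, 1 was higher and 0 lower, against 1.98% and 2.37% (4.35% either) of all 15599 genes tested in that way. By role, the 3 tested antagonists held the 1 call, whereas limma called 0 of the 19 tested receptor chains (8 at an unadjusted p under 0.05, 0 by edgeR, 1 by DESeq2) and 0 of the 3 tested ligands (2 at an unadjusted p under 0.05, 0 by edgeR and DESeq2). A total of 17 of the 37 ligand genes had 0 reads, as had 8 of the 38 receptor genes.

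**Figure D4:**
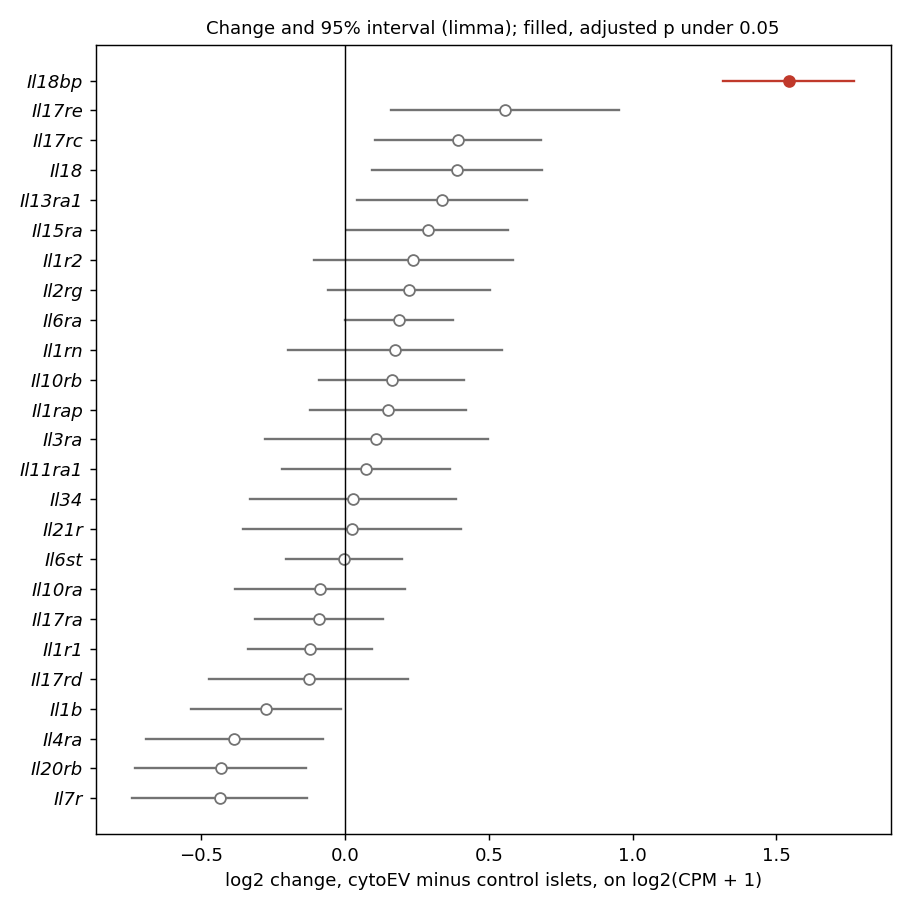
Log2 change (cytoEV minus control islets, on log2(CPM + 1)) with limma's 95% interval for the 25 tested members, in order of the change; the filled point passed at an adjusted p under 0.05. Il18bp stands at 1.54, and the other members lie between −0.44 for Il7r and 0.56 for Il17re.

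Genes of the interleukin signal chains, and receptor chains, ligands and partners with other names, were counted from 4 lists, together 64 tested genes. Of these, 6 were higher and 4 lower in limma, where 3.16% of all genes tested were higher and 3.51% lower. The lists were chosen with results of these data known, so their counts are a description. In the IL-1 and IL-18 list, with MyD88, the IRAK kinases and the inflammasome, 0 of 17 tested genes passed in either direction (median log2 change 0.00). At an unadjusted p under 0.05 there were 6 of the 17, edgeR called 0 and DESeq2 called 1, Gsdmd. The same shares over all genes were 23.3%, 5.67% and 12.4%. The smallest p in that list was that of Gsdmd, the pyroptosis pore gene, with 7.26 and 7.92 CPM in cytoEV islets against 5.48 and 4.53 CPM in control islets (limma adjusted p = 0.0503). EdgeR did not call Gsdmd (adjusted p = 0.0876), whereas DESeq2 did (adjusted p = 0.0150). Casp1, which cleaves the precursors of IL-1 beta and IL-18, had 2.02 and 1.63 CPM in cytoEV islets against 0.894 and 1.27 CPM in control islets (limma adjusted p = 0.114). Pycard, the inflammasome adaptor gene, had 4.08 and 3.45 CPM in cytoEV islets against 2.72 and 2.55 CPM in control islets (limma adjusted p = 0.115). Nfkbiz, an NF-kB cofactor gene, had 32.7 and 34.0 CPM in cytoEV islets against 40.5 and 39.8 CPM in control islets (limma adjusted p = 0.138).

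In the JAK-STAT list, 2 of 19 tested genes were higher, 3 lower and 14 did not pass (median log2 change 0.06), beside 3.16% higher and 3.51% lower over all genes. Socs3, a feedback inhibitor of gp130 receptors, fell to 9.05 and 9.68 CPM in cytoEV islets, against 31.1 and 28.3 CPM in control islets (log2 change −1.57 ± 0.11 SE, limma adjusted p = 6.62e-05). Stat3, which acts below gp130, fell to 231 and 236 CPM in cytoEV islets, against 360.1 and 350.3 CPM in control islets (log2 change −0.60 ± 0.08 SE, limma adjusted p = 0.00274). Its call was lost without cytoEV replicate 1 (0.0772) and without cytoEV replicate 2 (0.0513). Jak3, the kinase that binds the common gamma chain, had 4.57 and 4.86 CPM in cytoEV islets against 11.2 and 7.86 CPM in control islets and fell (log2 change −0.86 ± 0.16 SE, limma adjusted p = 0.0155). Stat2, named after its values were seen, rose, at 66.2 and 70.9 CPM in cytoEV islets against 48.4 and 49.8 CPM in control islets (limma adjusted p = 0.0181). With no filter on low values the limma calls of Stat2 (adjusted p = 0.0606) and Jak3 (adjusted p = 0.115) were lost. Leaving out either cytoEV library also lost the call of Stat2.

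In the IL-17 list, 2 of 9 tested genes were higher, 1 lower and 6 did not pass (median log2 change 0.08), beside the same 3.16% and 3.51% of all genes. Cebpd, a transcription factor gene of the acute-phase response, fell to 1.20 and 1.57 CPM in cytoEV islets, against 5.33 and 4.67 CPM in control islets (limma adjusted p = 0.000764). Lcn2, which encodes an iron-carrier-binding protein, rose to 1.63 and 2.12 CPM in cytoEV islets, against 0.786 and 0.653 CPM in control islets (limma adjusted p = 0.0180), a call lost with no filter (0.0641). Tnfaip3, which encodes the NF-kB inhibitor A20, rose to 13.8 and 13.8 CPM in cytoEV islets, against 10.1 and 9.50 CPM in control islets (limma adjusted p = 0.0429). That call was lost in edgeR (0.0559), with the replicate block (0.0669), with no filter (0.116), with TMM-scaled (0.0548) or median-centred values (0.0550), without cytoEV replicate 1 (0.411) and without cytoEV replicate 2 (0.378). Traf5, an adaptor gene, did not pass, at 8.10 and 8.51 CPM in cytoEV islets against 5.53 and 6.04 CPM in control islets (limma adjusted p = 0.0547).

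Of receptor chains and ligands with other names, 2 of 21 tested genes were higher, 0 lower and 19 did not pass (median log2 change 0.02), again beside 3.16% and 3.51% of all genes. At an unadjusted p under 0.05 there were 6 of the 21, and edgeR called 2 and DESeq2 5 in either direction. Over all genes, the matching shares were 23.3%, 5.67% and 12.4%. Csf1, the macrophage growth factor gene whose receptor also binds IL-34, rose to 27.2 and 27.2 CPM in cytoEV islets, against 15.8 and 15.9 CPM in control islets (log2 change 0.74 ± 0.10 SE, limma adjusted p = 0.00323). Ifngr2, the second chain of the interferon gamma receptor, rose to 13.0 and 12.1 CPM in cytoEV islets, against 8.06 and 8.96 CPM in control islets (limma adjusted p = 0.0347), a call lost with no filter (0.117), without cytoEV replicate 1 (0.392) and without cytoEV replicate 2 (0.166). Sdc1, a proteoglycan gene, did not pass, at 3.19 and 4.28 CPM in cytoEV islets against 6.10 and 5.73 CPM in control islets (limma adjusted p = 0.0552). Both cytoEV libraries were lower than both control libraries for Sdc1.

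**Figure D5:**
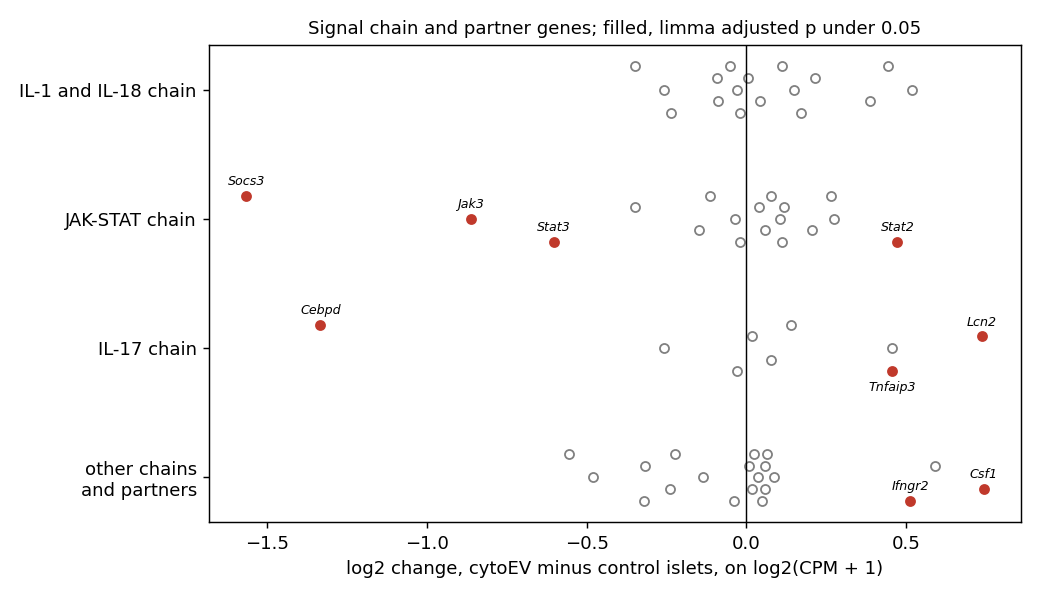
Log2 change (cytoEV minus control islets, on log2(CPM + 1)) of the tested genes of the 4 signal chain and partner lists, 1 row per list, without genes that are not reported here; filled points passed limma at an adjusted p under 0.05. Of the genes plotted, Socs3 at −1.57 and Csf1 at 0.74 are the ends of the range, and no gene of the IL-1 and IL-18 list is filled.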

How the data were processed

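The authors deposited a table of CPM values (counts per 1000000 reads of a library) for poly(A) RNA of 4 islet samples. From the submitters' processing notes come the names mm10, edgeR 3.1.1, R 3.6.1, StringTie 2.1.3 and TopHat2 2.0.6, without role or order. All values above 0 (100%) were whole multiples of 1 read within 0.01, which gave whole reads. If the authors' counts were rounded estimates, these are those estimates. The filters, the annotation and the strand setting were not stated in the labels. Control columns were matched to the untreated samples by name and replicate number.

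Genes with at least 1 CPM in 2 or more libraries (12780) were fitted with limma (version 3.58.1, R 4.3.3). Values were log2(CPM + 1), group was the only term, the prior variance followed the mean level, and 2 residual degrees of freedom were left. P-values were adjusted (Benjamini-Hochberg) over all genes tested, with calls under 0.05. A log2 change on this scale understates that of low genes. The whole reads were also tested with DESeq2 (version 1.42.0) and with edgeR (version 4.0.16, quasi-likelihood test, TMM factors). The fits were also run on simulated counts with a set spread and independent libraries. That run does not show their error rates in these libraries. Members, lists and tests were chosen with earlier results of these data known.

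Members past the filter are given in every library. Those below it are given by reads where a library had at least 0.1 CPM, or where the groups did not overlap and a library had 20 reads. Of each list, up to 4 genes with the smallest p are named, except some that are not reported here. Other low members, and the pairs whose ratios are given, were chosen after their values were seen. Coordinates and exon lengths are from GENCODE (GRCm38), promoters from RefSeq (GRCm38.p6). Python 3.11.15 was used for annotation and plots.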

Additional observations from a re-analysis of the deposited data

How the results depend on the processing

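Il18bp was called higher under every alternative run, with log2 changes of 1.32 to 1.61. All-gene calls, 404 higher and 449 lower, came to 745 and 845 in DESeq2 and 149 and 179 with no filter, and 252 were higher with a filter of 5 CPM. Leaving out 1 library gave 215 to 2408 higher and 249 to 2023 lower genes. A library left alone in its group is there assumed to vary like the other group. Both lowest counts came without cytoEV replicate 1 and both highest without control replicate 2. Of the interleukin genes, 1 to 5 were then higher and 0 to 2 lower, and 2 were higher in DESeq2. Of the 64 signal chain and partner genes, 3 to 14 were then higher and 3 to 12 lower, 2 were higher with no filter, and 8 were lower in DESeq2. With the replicate block, 2 interleukin genes were higher (Il17re joined, adjusted p = 0.0132) and 7 signal genes lower, and all-gene calls were 481 higher and 512 lower. Deviations of same-numbered libraries from their group means had a correlation of −0.22 across genes. With 2 libraries per group, this value cannot settle whether libraries share a mouse, a culture or a batch. The crossed pairing, chosen after seeing the data, gave 1469 higher and 1434 lower genes, 6 and 3 among interleukins and 12 and 10 among signal genes. Log2 changes near 0 turned sign, none of them called. With 1 library left out, they ran from −0.075 to 0.068 for Il6st, −0.042 to 0.19 for Il11ra1, −0.18 to 0.0039 for Il10ra, −0.13 to 0.35 for Il3ra, −0.30 to 0.047 for Il17rd, −0.18 to 0.23 for Il21r, −0.17 to 0.22 for Il34 and −0.017 to 0.37 for Il1rn. Median centring gave −0.0014 for Il21r. The cause was not tested. Depth limits members with 0 reads to at most 3 reads per library.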

Other observations

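Il22 and Il17rb carried the same reads in all libraries, 0 and 0 in cytoEV islets against 6 and 17 in control islets. Il20ra and Il12rb2 likewise carried the same reads as each other, 9 and 9 in cytoEV islets against 0 and 0 in control islets. These pairs were noticed after their values were seen.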
